A study of Mus musculus with 15 samples.

Results

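The 34 genes described here are the cytochromes P450 (Cyp), glutathione S-transferases (Gst), UDP-glucuronosyltransferases (Ugt) and cytosolic sulfotransferases (Sult) with a signal above a set level in purified endothelial cells of the adult mouse retina. They were chosen by symbol and by level: a symbol of 1 of the 4 families, and a mean above 6 on the log2 scale in at least 1 of the 4 genotype groups for the probe set that was brightest over all arrays. Of 117 genes of these families on the array, 34 passed, out of 18194 genes in all. They were 18 of 73 Cyp genes, 13 of 20 Gst genes, 1 of 11 Ugt genes and 2 of 13 Sult genes. Because the level chose them, their levels are given as a description. The last genes inside the threshold were Cyp1a1 (highest group mean 6.17), Gsta3 (6.18) and Cyp11a1 (6.35), and the first outside were Sult2a8 (5.96), Cyp4f18 (5.77) and Gstm4 (5.75).

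These families carry out the chemical steps by which cells make lipophilic compounds soluble. P450s are heme enzymes that insert oxygen into a substrate, and others of the family make or break down sterols, bile acids, vitamin D and retinoic acid. Glutathione S-transferases, UDP-glucuronosyltransferases and sulfotransferases then attach glutathione, glucuronic acid or sulfate. The endothelium of the retina forms the inner blood-retinal barrier, where such enzymes act together with efflux pumps on compounds that arrive with the blood.

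Each array held RNA from cells that had been captured with anti-PECAM beads and pooled from 5 to 10 adult mice of a mixed C57Bl6/129 background and of both sexes per the labels. The groups were Fz4-/- mice (Fz4 KO, 3 pools), which lack the receptor Frizzled4, Lrp5-/- mice (Lrp5 KO, 3 pools), which lack its coreceptor, Norrin- mice (Norrin KO, 3 pools), which lack the secreted ligand of that receptor, and wild type mice (6 pools). Norrin, Frizzled4 and Lrp5 act in 1 pathway that stabilizes beta-catenin in retinal endothelium and is required for the retinal vessels and their barrier. The alleles are not described further in the labels and no promoter or Cre line is named in them. Values are the deposited log2 signals, so a difference of 1 is a 2-fold change. Group differences come from a limma fit of all 15 arrays with Benjamini-Hochberg adjustment over 18194 genes, and the threshold was an adjusted p of 0.05. The number of arrays limits the precision, and p-values measure the spread between pools, not between mice.

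The targeted receptors checked the labels. Fzd4 averaged 4.22 ± 0.30 in Fz4 KO and 12.09 ± 0.20 in wild type (SD, n = 3 and 6), and Lrp5 averaged 4.91 ± 0.45 in Lrp5 KO and 7.69 ± 0.27 in wild type. Ndp, the gene of Norrin, had group means of 4.13 to 4.71 everywhere and checks nothing. The mean of 10 endothelial markers was 11.78 to 12.25 on mutant arrays and 12 to 12.3 on wild type arrays, while single markers went both ways, with 3 higher and 4 lower over the mutants. Beside this and the marker counts that follow, 14% of all genes were called higher over the mutants and 9.91% lower. The mean of 10 macrophage and microglia markers differed between the groups, at 10.02 to 10.62 in Fz4 KO, 9.57 to 10.30 in Lrp5 KO and 10.03 to 10.64 in Norrin KO against 8.18 to 9.73 in wild type, and 6 of the 10 were higher over the mutants. The 8 rod markers averaged 5.34 to 7.25 on mutant arrays and 5.31 to 6.11 on wild type arrays, and 1 of them was higher over the mutants. The 4 red blood cell markers measured averaged 4.66 to 5.97 on mutant arrays and 5.98 to 6.66 on wild type arrays, and 2 of them were lower. The 6 fibroblast markers averaged 7.84 to 8.20 in Fz4 KO, 7.88 to 8.11 in Lrp5 KO and 8.57 to 9.16 in Norrin KO against 8.49 to 8.89 in wild type, and over the mutants 1 was higher and 2 lower. The 9 pericyte and smooth muscle markers averaged 11.34 to 11.81 in mutants and 11.23 to 11.61 in wild type (2 higher, 1 lower). The 9 Muller glia and astrocyte markers averaged 9.97 to 10.94 and 9.71 to 10.68 (2 higher, 2 lower). Of 5 cone markers 1 was higher over the mutants, and 3 were in Lrp5 KO, beside 5.63% of all genes there. Of 6 pigment epithelium markers 2 were higher. The part of these cells, red blood cells and fibroblasts was not tested, nor which cells gave each member's signal. Hepatocyte markers, which would mark the tissue best known for these enzymes, averaged 5.14 to 5.67 on mutant arrays and 5.02 to 5.73 on wild type arrays. Lrp5 KO 1, Lrp5 KO 3 and wild type 4 stood apart on the second principal component. The gap between 3′ and 5′ actin control signals was 1.05 to 2.92 on Norrin KO arrays, highest on Norrin KO 1, and 0.56 to 1.04 on all others. With no overlap, an effect of the gap and of the genotype cannot be told apart in Norrin KO, also with the gap in the model. Xist was 4.12 to 4.98 on the 3 Norrin KO arrays. Other pools also lay at 1 end for a sex-linked gene: Xist was 4.76 and 5.90 on Lrp5 KO 2 and 1 and 4.88 and 5.99 on wild type 5 and 4, with 11.32 to 12.27 on the rest of the Lrp5 KO, Fz4 KO and wild type arrays, and Y-linked Eif2s3y was 2.69 to 3.25 on Fz4 KO 3, Lrp5 KO 3, wild type 3 and wild type 6. Only Fz4 KO 1 and 2 and wild type 1 and 2 had high signals of both genes, beside the label of mixed sex on every pool. In bulk RNA, fewer cells of a type and less RNA per cell cannot be told apart.

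Most of the 34 enzymes did not pass in any mutant, and the largest changes over the mutants were losses of the glutathione transferases Gstm7 and Gsta4. Over the mean of the 3 mutants, 7 members were lower than in wild type (Gstm7, Gsta4, Cyp2d22, Sult1a1, Gstt2, Cyp39a1 and Gstm5) and 3 were higher (Gsto1, Cyp27a1 and Cyp1a1), while the test called 9.91% of all genes lower and 14% higher, and 13.8% and 19.9% of the 11702 genes that reach level 6 in a group. Lower calls were thus 20.6% of the members and higher calls 8.82%. A gene that enters through the group in which it is high is more likely to differ, so these shares are a description of the members. Among the 31 genes of the families with a mean over all 15 arrays above 6, 7 were lower and 2 were higher, beside 13.9% and 19.4% of all genes at that level. The median difference of the 34 was -0.09, beside -0.01 over all genes. Lower in each mutant on its own were 5 of them: Gstm7, Gsta4, Cyp2d22, Sult1a1 and Cyp39a1. For Sult1a1 and Cyp39a1 the Norrin KO call ended with the actin gap or with Xist and Eif2s3y in the model, as given below. None was higher in each mutant, with Gsto1 at an adjusted p of 0.0503 in Lrp5 KO, and 21 passed nowhere by the probe set used. The shares of all genes lower in each mutant, higher in each mutant or past the test nowhere were not counted. These counts thus describe the members only.

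**Figure D1:**
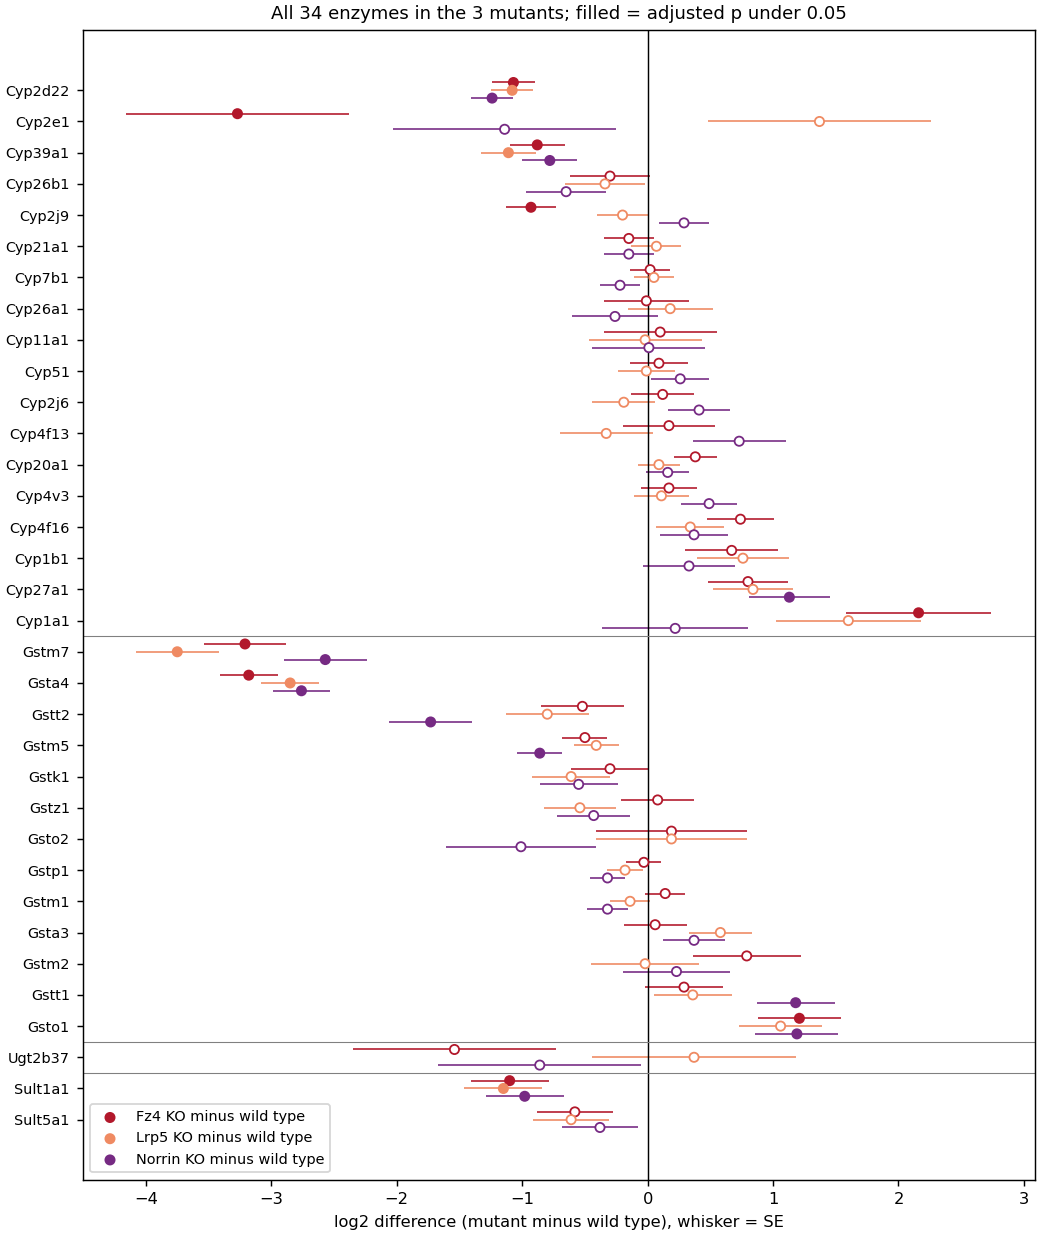
Log2 difference of each of the 34 enzymes (horizontal axis, mutant minus wild type, whiskers are the SE of the fit) in Fz4 KO, Lrp5 KO and Norrin KO, with P450s, glutathione transferases, Ugt2b37 and sulfotransferases in blocks from top to bottom and filled points for an adjusted p under 0.05. Gstm7 and Gsta4 lie between -3.75 and -2.57 in all 3 mutants, while most genes lie near 0 with open points.

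Each mutant was also compared with wild type alone. In Fz4 KO, 7 members were lower and 2 higher, of which Cyp1a1 entered only through its level in Fz4 KO (all genes: 6.08% lower and 10.7% higher, or 8.51% and 15.3% of genes that reach level 6). In Lrp5 KO, 5 were lower and none higher (all genes: 7.27% and 5.63%, or 10.7% and 8.44% of genes that reach level 6), with 11 members in either direction at an unadjusted p under 0.05. In Norrin KO, 7 were lower and 3 higher (all genes: 9.13% and 16.7%, or 12% and 22.8% of genes that reach level 6). The 3 comparisons share the same 6 wild type arrays.

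The plot of differences for all enzymes shows Gstm7 and Gsta4 apart from the rest. Gstm7, a mu class glutathione transferase, had 5.55, 5.66 and 5.26 on the Fz4 KO arrays, 3.78, 5.86 and 5.21 on the Lrp5 KO arrays and 6.41, 6.24 and 5.75 on the Norrin KO arrays, against 8.27 to 9.01 with a median of 8.72 on the wild type arrays. Every mutant array lay below every wild type array, and only wild type and Norrin KO had means above 6. Gstm7 became a member through these groups, with a mean of 6.79 over all 15 arrays, so its fall is a description. The fall was 3.18 ± 0.25 on the log2 scale over the mutants (SE, 9.07-fold lower, adjusted p = 2.71e-07), with -3.21 in Fz4 KO, -3.75 in Lrp5 KO and -2.57 in Norrin KO. A second, dim Gstm7 probe set, at 3.47 to 3.68 in mutants and 3.83 in wild type, did not pass, and with the mean of both probe sets the difference was -1.71 (adjusted p = 5.65e-07).

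Gsta4, an alpha class transferase that conjugates the lipid peroxidation product 4-hydroxynonenal, was lower by a similar amount. It had 9.58, 8.50 and 9.20 for Fz4 KO, 9.55, 9.32 and 9.41 for Lrp5 KO and 9.99, 9.5 and 9.05 for Norrin KO, against 11.91 to 12.53 with a median of 12.25 in wild type. No mutant array came within 1 log2 unit of a wild type array. Gsta4 fell by 2.93 ± 0.17 over the mutants (SE, 7.61-fold, adjusted p = 1.33e-08), and by 3.18 in Fz4 KO, 2.85 in Lrp5 KO and 2.76 in Norrin KO.

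Cyp2d22 belongs to the Cyp2d family, whose human counterpart CYP2D6 oxidizes many drugs. Its signals were 9.5, 9.60 and 9.40 for Fz4 KO, 9.28, 9.73 and 9.47 for Lrp5 KO and 9.73, 9.06 and 9.22 for Norrin KO, against 10.34 to 10.87 with a median of 10.5 in wild type. Again all 9 mutant arrays lay below all 6 wild type arrays. The difference over the mutants was -1.13 ± 0.13 (SE, 2.19-fold, adjusted p = 1.28e-05), and the second Cyp2d22 probe set differed by -0.91 with no overlap either (adjusted p = 0.000301 over all probe sets). In Lrp5 KO the call ended when Lrp5 KO 1, Lrp5 KO 3 and wild type 4 were left out together (-0.90, adjusted p = 0.0947).

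By the probe set used, Gstm7, Gsta4 and Cyp2d22 were the members with all 9 mutant arrays below all wild type arrays (all genes: 3.53%, or 5.22% of genes that reach level 6), and Gsto1 was the member with all above (all genes: 4.76%, or 7.15%). With the macrophage marker level in the model the differences over the mutants were -3.82 for Gstm7 (adjusted p = 6.44e-06), -2.69 for Gsta4 (adjusted p = 2.16e-05) and -1.15 for Cyp2d22 (adjusted p = 0.00287).

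**Figure D2:**
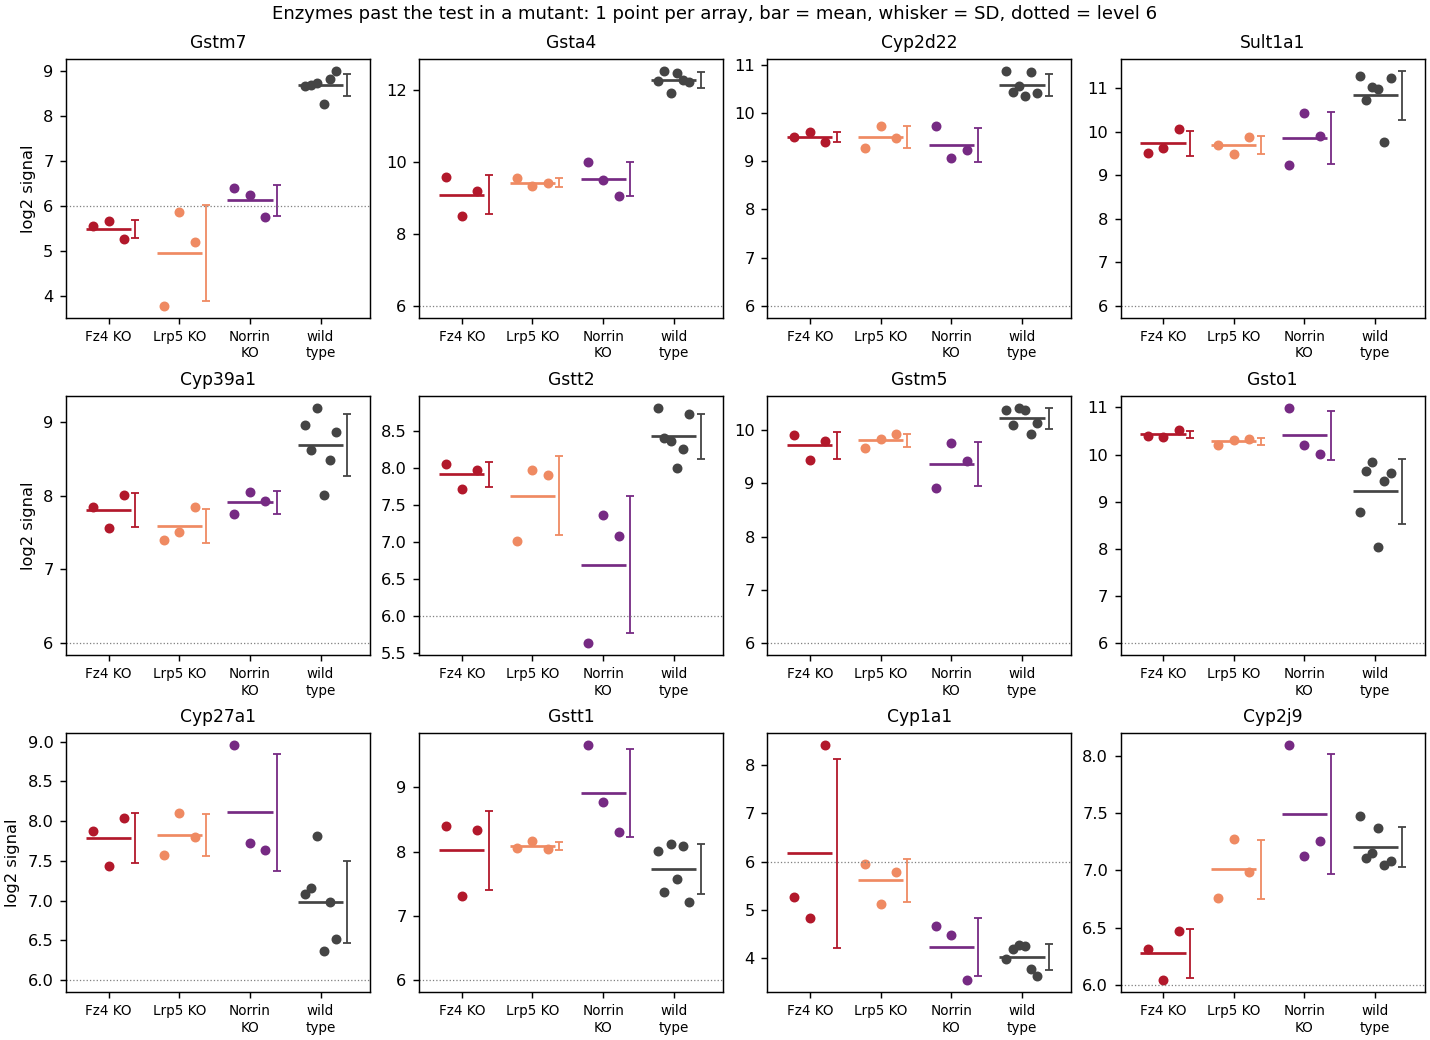
Log2 signal (vertical axis) of 12 enzymes past the test in at least 1 mutant, 1 point per array in Fz4 KO, Lrp5 KO, Norrin KO and wild type, with the mean as a bar, the SD as a whisker and level 6 dotted where the axis reaches it. The mutant points of Gstm7, Gsta4 and Cyp2d22 all lie below the wild type points, those of Gsto1 all lie above them, and Cyp1a1 in Fz4 KO is spread from 4.82 to 8.42.

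The other losses were smaller. Sult1a1, the phenol sulfotransferase, had 9.52, 9.63 and 10.07 on the Fz4 KO arrays, 9.70, 9.49 and 9.89 on the Lrp5 KO arrays and 9.23, 10.44 and 9.90 on the Norrin KO arrays, against 9.77 to 11.29 with a median of 11 in wild type. Wild type 5, at 9.77, was the only wild type array within the mutant range. The difference in Sult1a1 was -1.08 ± 0.23 over the mutants (SE, adjusted p = 0.00332). Its calls in single mutants were near the threshold (Fz4 KO adjusted p = 0.0249, Lrp5 KO 0.0254, Norrin KO 0.0326) and ended without Fz4 KO 1 or 2, without any Lrp5 KO array, without Norrin KO 1 or 3 and without wild type 1 or 6, with adjusted p up to 0.189 for the array left out, as the Norrin KO call also did without wild type 3 or 4. In Norrin KO the difference was -0.98, or -0.35 (adjusted p = 0.579) with the actin gap in the model and -0.55 (adjusted p = 0.357) with Xist and Eif2s3y. The difference over the mutants was -0.97 (adjusted p = 0.126) with the macrophage marker level in the model.

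Cyp39a1, which hydroxylates 24-hydroxycholesterol, had 7.84, 7.56 and 8.01 for Fz4 KO, 7.40, 7.51 and 7.84 for Lrp5 KO and 7.75, 8.05 and 7.92 for Norrin KO, against 8.01 to 9.19 with a median of 8.74 in wild type. Only wild type 4, at 8.01, reached the mutant range. The difference over the mutants was -0.92 ± 0.16 (SE, adjusted p = 0.000675). The call in Fz4 KO (-0.88) ended without Fz4 KO 2 (adjusted p = 0.0642), and that in Norrin KO (-0.78) without Norrin KO 1 (adjusted p = 0.074). The Norrin KO difference was -0.58 (adjusted p = 0.233) with the actin gap in the model and -0.42 (adjusted p = 0.217) with Xist and Eif2s3y.

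Gstt2, a theta class transferase, had 8.05, 7.72 and 7.97 for Fz4 KO, 7.01, 7.97 and 7.90 for Lrp5 KO and 5.64, 7.37 and 7.08 for Norrin KO, against 8 to 8.81 with a median of 8.38 in wild type. The Norrin KO arrays were the lowest as a group, with Norrin KO 1 lowest of all, and Fz4 KO overlapped wild type. It passed in Norrin KO (-1.73 ± 0.33, SE, adjusted p = 0.00136) and over the mutants (-1.02, adjusted p = 0.00652), but not in Fz4 KO (-0.52) or Lrp5 KO (-0.80). With the actin gap in the model the Norrin KO difference was -0.80 (adjusted p = 0.0667).

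Gstm5, another mu class gene, had 9.91, 9.43 and 9.80 on the Fz4 KO arrays, 9.67, 9.83 and 9.92 on the Lrp5 KO arrays and 8.92, 9.75 and 9.41 on the Norrin KO arrays, against 9.92 to 10.41 with a median of 10.25 in wild type. The highest Lrp5 KO array met the lowest wild type array, and the other groups did not overlap wild type. The difference was -0.59 ± 0.13 over the mutants (SE, 1.51-fold, adjusted p = 0.00463), and Norrin KO was the single mutant in which it passed (-0.86, adjusted p = 0.00291). That Norrin KO difference was -0.46 (adjusted p = 0.142) with the actin gap in the model and -0.79 (adjusted p = 0.0519) with Xist and Eif2s3y, and the difference over the mutants was -0.49 (adjusted p = 0.177) with the macrophage marker level in the model.

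Several of these genes lie beside each other, which allowed neighbours to be compared. In the GRCm38.p6 gene order the mu class genes on chromosome 3 run Gstm5, Gstm7, Gstm6, Gstm3, Gstm2, Gstm1 and Gstm4. All 7 are on the array and 4 of them are members. The 2 that passed over the mutants are the first 2 in that order, and the members farther along were close to wild type: Gstm2 at 0.33 ± 0.32 (adjusted p = 0.51) and Gstm1 at -0.11 ± 0.12 (SE, adjusted p = 0.572). Mu class genes are alike in sequence, and the Gstm1 probe set used is of a kind that may also bind related transcripts, and another Gstm1 probe set without that marking differed by -0.13 (adjusted p = 0.589 over all probe sets).

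The theta class genes on chromosome 10 run Gstt3, Gstt1, Gstt4 and Gstt2. Gstt2 was lower, as given above, and its dim neighbour Gstt4 (group means of 3.41 to 4.05) was also lower (-0.52, adjusted p = 0.0012). Gstt1, which metabolizes small halogenated compounds, had 8.40, 7.31 and 8.34 for Fz4 KO, 8.05, 8.16 and 8.04 for Lrp5 KO and 9.66, 8.77 and 8.30 for Norrin KO, against 7.21 to 8.11 with a median of 7.80 in wild type. All 3 Norrin KO arrays lay above wild type, and the difference there was 1.18 ± 0.31 (SE, adjusted p = 0.0115). It was 0.81 without Norrin KO 1 (adjusted p = 0.0877), 0.57 with the actin gap in the model (adjusted p = 0.344) and 1.03 with Xist and Eif2s3y in the model (adjusted p = 0.128). Without these terms in the model the 2 theta class members differed from wild type in opposite directions in Norrin KO.

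The omega class genes Gsto1 and Gsto2 lie on chromosome 19. Gsto1, which reduces dehydroascorbate and thiols, had 10.40, 10.38 and 10.52 for Fz4 KO, 10.20, 10.31 and 10.34 for Lrp5 KO and 10.99, 10.21 and 10.02 for Norrin KO, against 8.03 to 9.85 with a median of 9.52 in wild type. By this brightest probe set every mutant array lay above every wild type array, with wild type 4 the lowest. The rise was 1.15 ± 0.25 over the mutants (SE, 2.22-fold, adjusted p = 0.00323), with 1.21 in Fz4 KO at an adjusted p of 0.021, 1.06 for Lrp5 KO at 0.0503, and 1.19 for Norrin KO at 0.0175. The single calls ended without any 1 of the Fz4 KO arrays (adjusted p up to 0.0876) and without Norrin KO 1 (adjusted p = 0.113), and the Norrin KO difference was 0.80 (adjusted p = 0.287) with the actin gap in the model. The macrophage marker mean was 9.57 to 10.64 on mutant arrays and 8.18 to 9.73 on wild type arrays, with overlap. With that mean in the model the Gsto1 difference over the mutants was 0.34 (adjusted p = 0.519). A second Gsto1 probe set averaged 8.65 in wild type and 9.61 to 9.78 in the mutants, and its mutant and wild type arrays overlapped. It passed in limma over the mutants (1.05, adjusted p = 0.0214 over all probe sets). In single mutants it did not (adjusted p = 0.0791 in Fz4 KO, 0.175 in Lrp5 KO and 0.069 in Norrin KO). Gsto2 varied most within wild type (range 3.27) and Norrin KO (range 1.76). It did not pass (-0.21 ± 0.44 over the mutants, SE, adjusted p = 0.782), and the difference between the 2 genes was not tested.

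**Figure D3:**
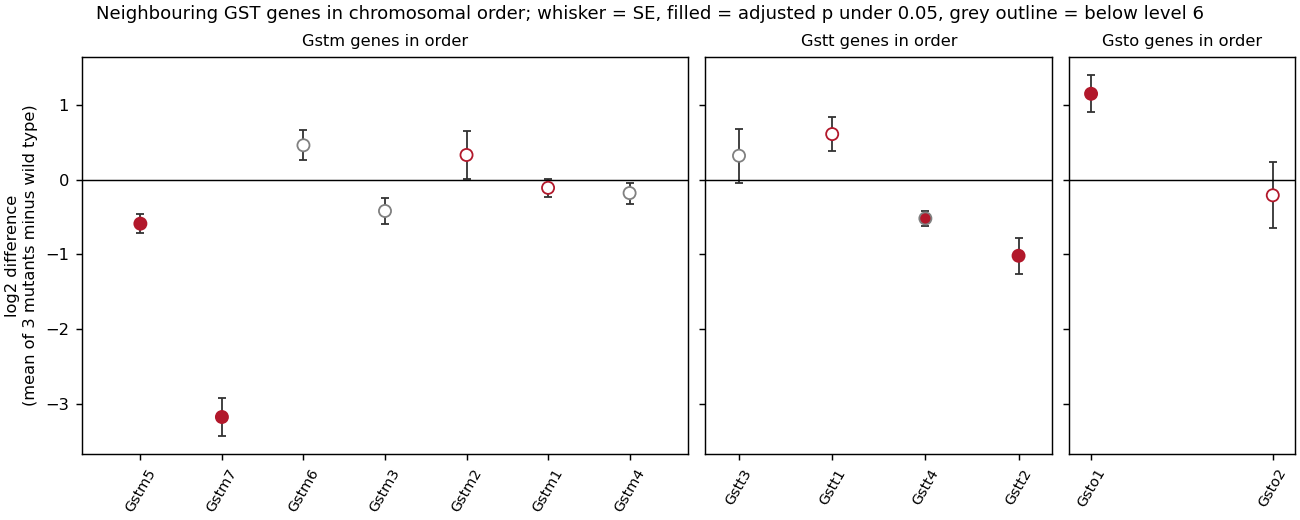
Log2 difference (vertical axis, mean of the 3 mutants minus wild type, whiskers are the SE of the fit) for the mu, theta and omega class glutathione transferase genes in their order along chromosomes 3, 10 and 19, with filled points for an adjusted p under 0.05 and grey outlines for genes below level 6 in all groups. Gstm7 at -3.18 stands beside Gstm5 at -0.59, Gstt2 at -1.02 beside Gstt4 at -0.52, and Gsto1 at 1.15 beside Gsto2 at -0.21.

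The promoters of the Gstm5 and Gstm7 neighbours are shown because these genes lie side by side and differed in the size of their fall. The windows are from RefSeq on GRCm38.p6, 300 bases around an annotated start, at chr3:107895604-107895903 (plus strand) for Gstm5 and chr3:107931565-107931864 (minus strand) for Gstm7. Capitals mark TGACNNNGC, the core of the antioxidant response element bound by Nrf2, searched on both strands.
Gstm5: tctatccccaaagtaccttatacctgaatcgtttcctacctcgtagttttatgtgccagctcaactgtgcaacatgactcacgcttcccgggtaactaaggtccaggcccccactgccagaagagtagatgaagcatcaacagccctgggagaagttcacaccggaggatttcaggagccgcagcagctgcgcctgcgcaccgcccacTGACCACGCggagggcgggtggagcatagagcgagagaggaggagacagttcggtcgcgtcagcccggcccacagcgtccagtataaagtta
Gstm7: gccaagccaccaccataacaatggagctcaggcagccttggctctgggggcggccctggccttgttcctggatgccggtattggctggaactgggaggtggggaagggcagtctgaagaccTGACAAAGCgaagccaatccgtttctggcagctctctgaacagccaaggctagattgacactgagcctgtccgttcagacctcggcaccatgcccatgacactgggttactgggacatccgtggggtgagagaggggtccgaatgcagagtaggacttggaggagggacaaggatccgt
The match begins at base -42 from the start in Gstm5 and at base -129 in Gstm7, and a second annotated Gstm7 start had 0 matches. That second start lies upstream of the one shown (window chr3:107931768-107932067, minus strand). The Gstm7 match thus lies between its annotated starts and may be in transcribed sequence, so its position is not comparable with that in Gstm5. This core is in 12.4% of all 32851 promoter windows and in 4 of the 33 windows found for 28 members. A match describes the letters and not a binding site. The closing letters of the Gstm5 match also read as the Ahr core on the opposite strand.

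The other 7 glutathione transferases among the members that passed nowhere were Gsta3, Gstk1, Gstm1, Gstm2, Gsto2, Gstp1 and Gstz1. Their differences over the mutants ran from -0.49 in Gstk1, the kappa class enzyme of mitochondria and peroxisomes, to 0.33 in Gsta3 and Gstm2. Gstp1, the pi class enzyme, had group means of 11.41 to 11.69 in the mutants and 11.72 in wild type. Gsta3 was above 6 in 1 of the 4 groups, and Gstz1, which acts in tyrosine breakdown, in 2.

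Among the P450s, Cyp1a1 was the member with the largest rise, and it was low in wild type. Cyp1a1 oxidizes polycyclic aromatic compounds and is the best known target of the aryl hydrocarbon receptor Ahr, which binds such compounds and acts with Arnt on DNA. The signals were 5.27, 4.82 and 8.42 on the Fz4 KO arrays, 5.95, 5.11 and 5.78 on the Lrp5 KO arrays and 4.67, 4.48 and 3.54 on the Norrin KO arrays, against 3.62 to 4.27 with a median of 4.08 in wild type. All Fz4 KO and Lrp5 KO arrays were above wild type, Norrin KO overlapped it, and Fz4 KO 3 alone was above 6. Cyp1a1 thus reached level 6 and became a member only through Fz4 KO, so its Fz4 KO difference is a description. The difference was 2.16 ± 0.58 in Fz4 KO (SE, adjusted p = 0.0177), 1.60 for Lrp5 KO (adjusted p = 0.0883), 0.22 for Norrin KO and 1.33 over the mutants (adjusted p = 0.0359). Without Fz4 KO 3 it was 1.04 in Fz4 KO (adjusted p = 0.0441), and the call over the mutants ended without Lrp5 KO 1 or 3, Norrin KO 1 or 2, or wild type 1, 2, 5 or 6 (adjusted p up to 0.0784). With the macrophage marker level in the model it was 2.30 in Fz4 KO (adjusted p = 0.142) and 1.45 over the mutants (adjusted p = 0.22).

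Ahr itself was higher in every mutant. It averaged 10.19 ± 0.20 in Fz4 KO, 10.13 ± 0.07 in Lrp5 KO, 10.34 ± 0.30 in Norrin KO and 7.01 ± 0.43 in wild type (SD, n = 3, 3, 3 and 6), with no overlap and a difference of 3.21 ± 0.17 over the mutants (SE, 9.28-fold, adjusted p = 3.59e-09). The mean of its 2 probe sets differed by 2.14 (adjusted p = 2.27e-09). It was 2.81 (adjusted p = 4.07e-06) with the macrophage marker level in the model. Of the 5 measured genes of the Ahr list, Ahr was the only one past the test (all genes over the mutants: 14% higher and 9.91% lower). Cyp1b1, also a target of Ahr, had 8.64, 7.84 and 8.88 for Fz4 KO, 8.37, 8.59 and 8.66 for Lrp5 KO and 8.52, 8.62 and 7.19 for Norrin KO, against 6.77 to 8.46 with a median of 7.91 in wild type. The groups overlapped and the difference did not pass (0.59 ± 0.28 over the mutants, SE, adjusted p = 0.153). A dimmer Cyp1b1 probe set, at 4.07 in wild type, did pass in limma. It differed by 0.97 over the mutants (adjusted p = 0.0174 over all probe sets) and 1.14 in Norrin KO (adjusted p = 0.0328), with overlap. Another dim Cyp1b1 probe set did not pass (0.09 over the mutants, adjusted p = 0.719). No difference in Ahr between the mutants passed in limma (adjusted p of 0.628 to 0.95).

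The promoters of Cyp1a1 and Cyp1b1 are shown because Ahr was higher in all 3 mutants. Capitals mark GCGTG, the core that Ahr binds with Arnt, searched on both strands, in windows at chr9:57697363-57697662 (plus strand) for Cyp1a1 and chr17:79715012-79715311 (minus strand) for Cyp1b1, from RefSeq on GRCm38.p6.
Cyp1a1: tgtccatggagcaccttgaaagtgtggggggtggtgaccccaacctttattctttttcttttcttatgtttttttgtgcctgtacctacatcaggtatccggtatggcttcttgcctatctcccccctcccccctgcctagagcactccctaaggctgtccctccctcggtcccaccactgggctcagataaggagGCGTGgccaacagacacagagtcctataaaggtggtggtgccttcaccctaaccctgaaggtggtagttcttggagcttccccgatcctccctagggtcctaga
Cyp1b1: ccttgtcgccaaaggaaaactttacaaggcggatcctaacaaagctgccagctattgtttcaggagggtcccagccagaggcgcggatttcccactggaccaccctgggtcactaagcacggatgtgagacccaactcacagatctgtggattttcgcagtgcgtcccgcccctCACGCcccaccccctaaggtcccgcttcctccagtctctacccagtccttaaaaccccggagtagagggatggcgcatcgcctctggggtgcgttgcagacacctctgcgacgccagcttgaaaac
The core begins at base -54 in Cyp1a1 and, on the opposite strand, at base -76 in Cyp1b1, where it appears as CACGC. It is in 32.4% of all promoter windows and in 11 of the 33 windows of members. More distant sequence was not searched.

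The Ugt1a enzymes, other known targets of Ahr, are read by 3 probe sets that each list 8 symbols, so they are not counted among the members. The second of them averaged 8.32 ± 0.31 in Fz4 KO, 7.40 ± 0.18 in Lrp5 KO, 8.5 ± 0.68 in Norrin KO and 7.02 ± 0.55 in wild type (SD, n = 3, 3, 3 and 6). The 9 mutant and 6 wild type arrays overlapped, and the difference over the mutants was 1.05 (adjusted p = 0.00691 over all probe sets).

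**Figure D4:**
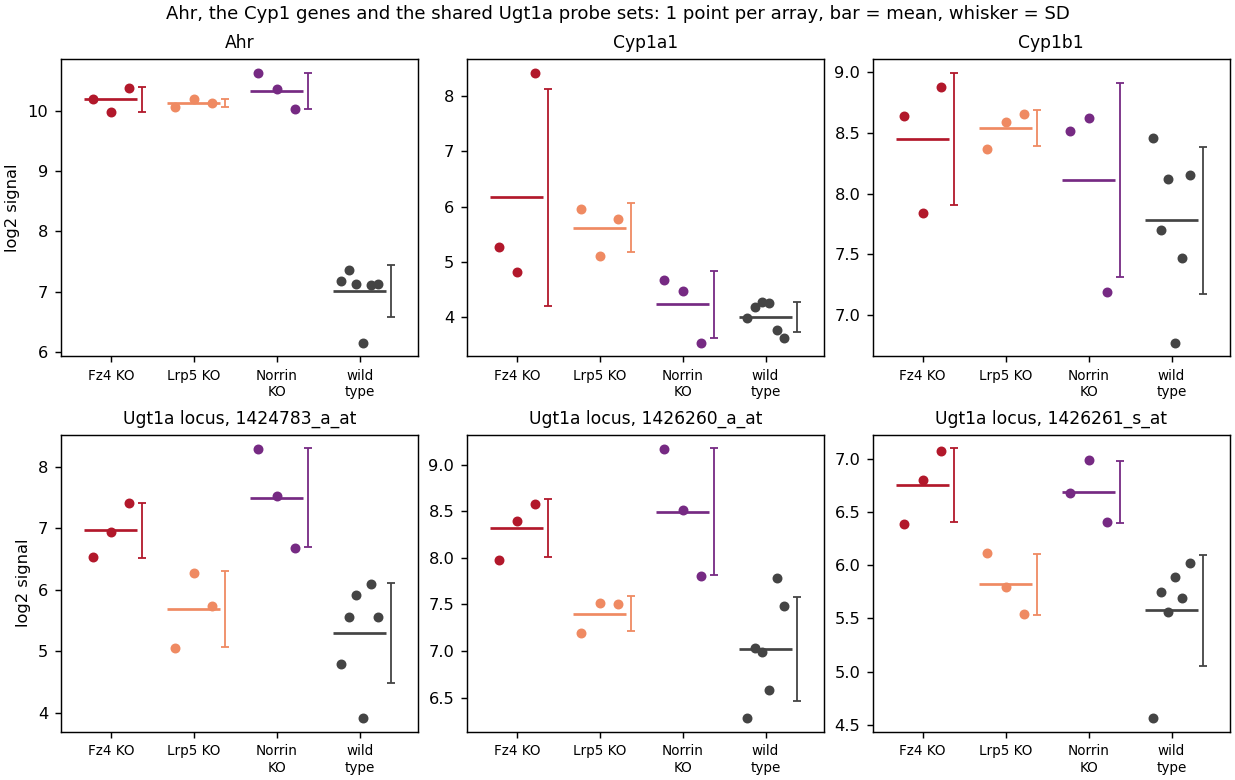
Log2 signal (vertical axis) of Ahr, Cyp1a1 and Cyp1b1 in the upper row and of 3 probe sets shared by 8 Ugt1a genes in the lower row, 1 point per array in Fz4 KO, Lrp5 KO, Norrin KO and wild type, with the mean as a bar and the SD as a whisker. Ahr separates all 9 mutant arrays from wild type, Cyp1a1 separates Fz4 KO and Lrp5 KO, and the Ugt1a probe sets are high in Fz4 KO and Norrin KO.

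Cyp2j9 and Cyp2e1 passed in Fz4 KO alone among the single mutants. Cyp2j9, which oxidizes arachidonic acid, had 6.31, 6.04 and 6.47 for Fz4 KO, 6.76, 7.28 and 6.99 for Lrp5 KO and 8.10, 7.13 and 7.26 for Norrin KO, against 7.05 to 7.48 with a median of 7.13 in wild type. The Fz4 KO arrays were the lowest of all 15. The difference was -0.93 ± 0.20 from wild type (SE, adjusted p = 0.00481), and -0.68 (adjusted p = 0.198) with the macrophage marker level in the model.

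Cyp2j9 was also the 1 member that passed between mutants, lower in Fz4 KO than in Norrin KO (-1.23, adjusted p = 0.018, all genes: 1.43% lower and 0.896% higher, or 2.01% and 1.28% of genes that reach level 6). That call ended without Fz4 KO 1 (adjusted p = 0.0707), Fz4 KO 2 (0.0769) or Norrin KO 1 (-0.92, adjusted p = 0.0537). It was -0.68 (adjusted p = 0.317) with the actin gap in the model, and missed the threshold with Xist and Eif2s3y (adjusted p = 0.278) and in a fit of the 2 groups alone (adjusted p = 0.128). In limma no member passed between Fz4 KO and Lrp5 KO (all genes: 0.066% lower and 0.159% higher, or 0.103% and 0.205%) or between Norrin KO and Lrp5 KO (all genes: 2.43% lower and 9.5% higher, or 3.09% and 13.5%), with 2 and 6 members at an unadjusted p under 0.05.

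Cyp2e1, which oxidizes ethanol and acetone and is a major liver P450, varied within the wild type group more than any other member. It had 4.12, 3.41 and 2.90 on the Fz4 KO arrays, 7.10, 8.74 and 8.49 on the Lrp5 KO arrays and 7.49, 3.63 and 5.71 on the Norrin KO arrays, against 3.75 to 8.36 with a median of 7.07 in wild type. Wild type 4 alone among wild type arrays fell to the Fz4 KO range. Cyp2e1 became a member only through Lrp5 KO (mean 8.11) and wild type (6.75), with means of 3.48 in Fz4 KO and 5.61 in Norrin KO. Its Fz4 KO difference is therefore a description. The difference in Fz4 KO was -3.27 ± 0.89 (SE, adjusted p = 0.0198), and it ended without Fz4 KO 2 (adjusted p = 0.0629) or Fz4 KO 3 (adjusted p = 0.1). Over the mutants it was -1.01 and did not pass, though it did without wild type 4 (-1.61, adjusted p = 0.0395). Hepatocyte markers averaged 5.14 to 5.35 in Fz4 KO and 5.02 to 5.73 in wild type. The Fz4 KO difference was -4.38 (adjusted p = 0.0532) with the macrophage marker level in the model.

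Ugt2b37 was the only UDP-glucuronosyltransferase among the members, and it was also uneven. Its signals were 6.76, 6.54 and 3.75 for Fz4 KO, 8.77, 6.97 and 7.07 for Lrp5 KO and 7.23, 5.76 and 6.10 for Norrin KO, against 4.80 to 9.01 with a median of 7.5 in wild type. All groups overlapped and no comparison with wild type passed. Gsto2, a dehydroascorbate reductase, ran from 6.73 to 7.42 in Fz4 KO, 6.40 to 7.36 in Lrp5 KO and 5.14 to 6.91 in Norrin KO, against 4.64 to 7.91 in wild type.

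**Figure D5:**
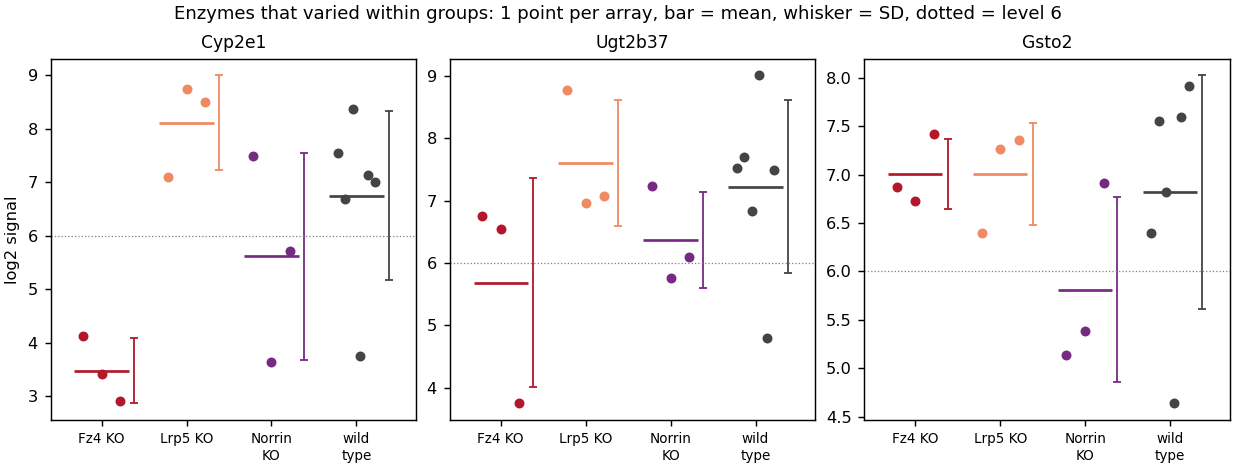
Log2 signal (vertical axis) of Cyp2e1, Ugt2b37 and Gsto2, 1 point per array in Fz4 KO, Lrp5 KO, Norrin KO and wild type, with the mean as a bar, the SD as a whisker and level 6 dotted. Wild type arrays alone cover 4.60, 4.21 and 3.27 log2 units in the 3 genes, and the Cyp2e1 points of Fz4 KO lie at 4.12 and below.

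The P450s of sterol, steroid, bile acid and vitamin metabolism held 7 members, of which Cyp27a1 was higher and Cyp39a1 lower over the mutants. Cyp27a1, the mitochondrial sterol 27-hydroxylase, had 7.88, 7.43 and 8.04 for Fz4 KO, 7.57, 8.10 and 7.80 for Lrp5 KO and 8.96, 7.73 and 7.64 for Norrin KO, against 6.36 to 7.81 with a median of 7.03 in wild type. Wild type 3, at 7.81, was the only wild type array within the mutant range. The difference was 0.92 ± 0.24 over the mutants (SE, adjusted p = 0.0116), and the call in Norrin KO (1.13, adjusted p = 0.0198) ended without Norrin KO 1 (0.70, adjusted p = 0.14). That difference was 0.47 (adjusted p = 0.465) with the actin gap in the model and 1.29 (adjusted p = 0.0699) with Xist and Eif2s3y. With the macrophage marker level in the model the difference over the mutants was 0.75 (adjusted p = 0.256), and with the rod marker mean it was 0.70 (adjusted p = 0.148).

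The other 5 of this class passed nowhere by the probe set used: Cyp51, the lanosterol demethylase of cholesterol synthesis, Cyp7b1, an oxysterol hydroxylase, Cyp11a1 and Cyp21a1, enzymes of steroid hormone synthesis, and the orphan Cyp20a1. Dimmer probe sets passed in limma over all probe sets for Cyp7b1 in Norrin KO (-0.92, adjusted p = 0.0063) and Cyp51 in Lrp5 KO (-1.07, adjusted p = 0.0293). A dimmer Cyp20a1 probe set passed in Norrin KO (0.58, adjusted p = 0.0044) and over the mutants (0.32, adjusted p = 0.0247). The remaining probe sets of these 5 genes did not pass. Cyp20a1 had group means of 10.20 to 10.49 in the mutants and 10.11 in wild type. The retinoic acid hydroxylases Cyp26a1 and Cyp26b1 also passed nowhere, at -0.03 and -0.43 over the mutants. Cyp26b1 averaged 8.88 ± 0.46 in Fz4 KO, 8.84 ± 0.70 in Lrp5 KO, 8.52 ± 0.65 in Norrin KO and 9.18 ± 0.30 in wild type (SD, n = 3, 3, 3 and 6). Among the fatty acid P450s, Cyp2j6, Cyp4f13, Cyp4f16 and Cyp4v3, the mouse counterpart of a gene mutated in human Bietti crystalline dystrophy, did not pass either. Sult5a1 was at -0.52 ± 0.23 over the mutants (SE, adjusted p = 0.119).

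Of the members lower over the mutants for which a promoter window was found, Sult1a1 was the one that held the core bound by TCF and LEF factors, the partners of beta-catenin, and it is shown for that reason. The window is chr7:126676369-126676668 on the minus strand, from RefSeq on GRCm38.p6, and capitals mark CTTTGA as read on the opposite strand.
Sult1a1: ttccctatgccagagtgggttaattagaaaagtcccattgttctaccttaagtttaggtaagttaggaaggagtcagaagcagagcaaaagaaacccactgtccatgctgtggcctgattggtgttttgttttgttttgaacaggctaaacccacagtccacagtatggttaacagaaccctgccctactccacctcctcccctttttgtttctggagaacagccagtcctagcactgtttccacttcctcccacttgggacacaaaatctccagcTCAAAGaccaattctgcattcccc
The match begins at base 27 counted from the start. This core is in 16.0% of all promoter windows and in 2 of the 33 windows of members, those of Sult1a1 and Cyp2e1.

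The enzymes and proteins that work with these families were taken from lists. Over all genes the test called 9.91% lower and 14% higher over the mutants. Of 20 other oxidation, reduction and hydrolysis enzymes measured, 7 were lower and 1 higher over the mutants, with a median difference of -0.26 beside -0.01 over all genes. Maoa and Maob, which oxidize amines, were lower, with differences of -2.00 (adjusted p = 8.3e-09) and -2.51 (adjusted p = 7.98e-06). The alcohol dehydrogenase Adh1 was lower at -2.36 (adjusted p = 2.76e-05) and the epoxide hydrolase Ephx1 at -0.92 (adjusted p = 0.000117). All 9 mutant arrays lay below wild type for each of these 4 genes. Cbr3, a carbonyl reductase, was the 1 that rose (1.5, adjusted p = 1.84e-05). Of 7 P450 redox partners measured, Cyb5b, a cytochrome b5 of the outer mitochondrial membrane, was lower (-0.89, adjusted p = 0.000614).

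Of 9 other conjugation enzymes, 2 were lower, among them Mgst2, a microsomal glutathione transferase (-1.5, adjusted p = 0.000834). The shares over all genes, 9.91% lower and 14% higher, also stand beside the counts of this paragraph. Of 8 genes of cofactor supply, 2 were higher: Papss2, which makes the sulfate donor of the sulfotransferases (1.60, adjusted p = 5.54e-06, or 0.93 with the mean of its 4 probe sets), and Gclc, the catalytic subunit of the first enzyme of glutathione synthesis (0.75, adjusted p = 0.00947). Sult1a1 and its cofactor enzyme Papss2 thus differed from wild type in opposite directions. Of 6 drug efflux pumps, Abcb1a (-1.62), Abcc4 (-0.84) and Abcg2 (-0.81) were lower and Abcc1 was higher (0.78).

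Of 10 genes of the Nrf2 pathway, which induces many glutathione transferases, 5 were higher and 1 lower over the mutants, with 6 higher in Fz4 KO, 4 higher and 1 lower in Lrp5 KO, and 1 each way in Norrin KO. Over all genes the test called 14% higher over the mutants, 10.7% in Fz4 KO, 5.63% in Lrp5 KO and 16.7% in Norrin KO. It called 9.91% lower over the mutants, 6.08% in Fz4 KO, 7.27% in Lrp5 KO and 9.13% in Norrin KO. The median difference was 0.54 for the Nrf2 list over the mutants, 0.39 for the Ahr list, 0.13 for cofactor supply, 0.11 for conjugation, 0.04 for nuclear receptors, -0.03 for redox partners and -0.36 for efflux pumps. Nfe2l2, which encodes Nrf2, was at 0.79 (adjusted p = 0.00202), Txnrd1 at 0.57 (adjusted p = 0.00218), Osgin1 at 1.25 (adjusted p = 0.00655), Srxn1 at 0.92 (adjusted p = 0.0225) and Gclc as given above, while Keap1, the inhibitor of Nrf2, was lower (-0.48, adjusted p = 0.00688). The calls of Nfe2l2, Txnrd1, Osgin1 and Gclc ended with the macrophage marker level in the model, at adjusted p of 0.2, 0.2, 0.311 and 0.485. Of 12 nuclear receptors measured, 2 were higher, the larger being the fatty acid receptor Pparg (3.00, adjusted p = 6.87e-07), which averaged 7.69 ± 0.21 in Fz4 KO, 7.16 ± 0.16 in Lrp5 KO, 9.22 ± 0.84 in Norrin KO and 5.03 ± 0.55 in wild type (SD, n = 3, 3, 3 and 6).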

How the data were processed

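RNA of 15 pools of purified retinal endothelial cells was hybridized to 1 Affymetrix mouse array each. The deposited table holds log2 signals of 45101 probe sets that the authors obtained by RMA, as the submitters' processing notes name it. This method corrects background, quantile normalizes and summarizes the probes of a set. Its version, and whether the 15 arrays were normalized together, is not given in the sources used here. Array medians were 5.88 to 6.04. Detection calls were not used here, so a low signal may be background and folds of dim genes are understated.

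Probe sets were named from the platform annotation, and of the 45101 probe sets 34958 had 1 symbol, 932 several and 9211 none. Each of 18194 genes was read by its probe set of highest average signal. The 34 members have 56 probe sets, 15 members having several, and 9 family probe sets with several symbols were set apart. Differences were fitted with limma 3.58.1 (lmFit, contrasts.fit, eBayes) under R 4.3.3 with 4 group means, 7 contrasts, Benjamini-Hochberg adjustment over all genes and a threshold of 0.05. The members, the 18 gene lists and the tests were chosen with earlier results of these data known. Named genes were the members past the threshold without overlap of mutant and wild type arrays, and the 3 largest changes each way in each single comparison. The values of the other members that passed, Cyp39a1 and Gstm5 among them, and of single list genes were chosen after the values were seen. Alternatives were 17 settings and leaving out each array.

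In simulated data with the spread of these arrays and 18194 genes, 100 genes were changed by 2-fold and 100 by 4-fold. Over the mutants the test recovered 76 of the 2-fold and 100 of the 4-fold changes, with 5 false calls. In single mutants it recovered fewer 2-fold changes: 55 in Fz4 KO, 55 in Lrp5 KO and 56 in Norrin KO. Of the 4-fold changes it recovered 95, 94 and 96, with 3, 6 and 5 false calls. A 2-fold change in a single mutant could thus be missed. In the data 2554 genes were called higher and 1803 lower over the mutants, so the simulation does not give the recovery there.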

Additional observations from a re-analysis of the deposited data

Results flagged for a closer look

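Single wild type arrays stood far from the other 5 in 3 of the 34 members, where chance gives about 1 such gap in 20 groups. Wild type 4 had Gstz1 at 5.52, with the others at 6.27 to 6.69, and Cyp2e1 at 3.75, with the others at 6.68 to 8.36. It was also 1 of the 3 arrays that stood apart on the second principal component. Wild type 5 had Sult1a1 at 9.77, with the others at 10.74 to 11.29.

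Cyp2j9 was lower in Fz4 KO than in Norrin KO by a limma contrast between them (-1.23, adjusted p = 0.018), with 6.04 to 6.47 in Fz4 KO and 7.13 to 8.10 in Norrin KO. With the actin gap in the model it was -0.68 (adjusted p = 0.317), with Xist and Eif2s3y it was -1.23 (adjusted p = 0.278), and in a fit of the 2 groups alone the adjusted p was 0.128.

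Signal outside the counted genes came from 3 probe sets that each list 8 Ugt1a symbols, a locus whose enzymes share their last exons and include the bilirubin glucuronosyltransferase. Over the mutants they were higher than wild type by 1.42 (adjusted p = 0.00975), 1.05 (adjusted p = 0.00691) and 0.85 (adjusted p = 0.0105), adjusted over 45101 probe sets in limma. The first averaged 6.97 ± 0.44 in Fz4 KO, 5.69 ± 0.62 in Lrp5 KO, 7.5 ± 0.81 in Norrin KO and 5.30 ± 0.81 in wild type (SD, n = 3, 3, 3 and 6). Each passed in Fz4 KO and in Norrin KO and missed the threshold in Lrp5 KO (adjusted p = 0.784, 0.651 and 0.775), and which Ugt1a transcript they report cannot be told apart.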

How the results depend on the processing

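Over the mean of the mutants, Gstm7, Gsta4, Cyp2d22 and Cyp39a1 passed under every setting tried, and no direction was reversed in any of 52 gene results. The counts of members that passed moved as follows, and the cause was not tested. Shares of all genes called are given for the main fit only. The counts by setting thus describe the members alone and do not set them apart from other genes.

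With the macrophage marker level in the model, 0 members were higher in Fz4 KO, in Norrin KO and over the mutants, and 4 were lower in Fz4 KO. With the 3′ to 5′ actin gap as a covariate, 2 were higher in Lrp5 KO, 0 were higher and 3 lower in Norrin KO, and 0 were lower in Fz4 KO than in Norrin KO. With Xist and Eif2s3y as covariates, 1 was higher and 4 lower in Norrin KO, and 0 were lower in Fz4 KO than in Norrin KO. With the rod marker mean as a covariate, 1 was higher in Fz4 KO, 1 over the mutants and 1 in Norrin KO against Lrp5 KO. Array weights gave 4 higher in Fz4 KO, 4 in Lrp5 KO and 5 over the mutants, 2 lower in Fz4 KO than in Lrp5 KO and 2 lower in Norrin KO than in Lrp5 KO.

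A 2-fold minimum left 4 lower in Norrin KO. Without the 3 arrays that stood apart, 3 were lower in Lrp5 KO, where 1 array then remained and was assumed to vary like the others. With the genes above the median gene, 1 was higher in Fz4 KO and 1 in Lrp5 KO. Quantile normalization, eBayes with trend and robust, and a fit of the groups compared each gave 1 higher in Lrp5 KO, and that fit gave 0 lower in Fz4 KO than in Norrin KO. The mean of all probe sets, and the use of no probe sets marked for cross-hybridization, each gave 1 lower in Norrin KO than in Lrp5 KO. Choosing members by the mean over 15 arrays, or at level 7, gave 1 higher in Fz4 KO. Recentring moved the median of all genes by -0.039 to 0.015.

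Deviations of same-numbered arrays correlated at -0.238 to 0.381, and the main fit did not pair arrays. Wild type 1 to 3 were the only wild type arrays in that check, with 0.258, 0.06 and 0.381 against Fz4 KO. Xist was 5.90, 4.76 and 12.21 on Lrp5 KO 1, 2 and 3, and 5.99, 4.88 and 12.27 on wild type 4, 5 and 6. Whether arrays with unlike numbers form pairs was not tested. The replicate block gave 0 higher in Fz4 KO, 0 higher in Norrin KO, 1 higher over the mutants and 0 lower in Fz4 KO than in Norrin KO.

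Leaving out 1 array at a time gave 1 to 3 higher and 4 to 8 lower in Fz4 KO, 0 to 2 and 4 to 6 in Lrp5 KO, 0 to 4 and 5 to 8 in Norrin KO, and 2 to 5 and 7 to 8 over the mutants. Between mutants it gave 0 higher and 0 to 1 lower in Fz4 KO against Lrp5 KO, and 0 to 1 each way in Fz4 KO against Norrin KO and in Norrin KO against Lrp5 KO.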

Other observations

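The 83 genes of the 4 families below level 6 in every group also held genes past the test. Over the mutants Cyp4f18 (0.47, adjusted p = 0.0491) and Cyp2r1, a vitamin D 25-hydroxylase (0.85, adjusted p = 0.028), were higher, and Gstt4 was lower, beside 14% and 9.91% of all genes. In Norrin KO 6 of them were higher, Cyp46a1, Cyp2r1, Cyp4f15, Cyp4f14, Gstm6 and Cyp2s1, and 1 was lower, beside 16.7% and 9.13% of all genes. In Fz4 KO 2 were higher and 2 lower, beside 10.7% and 6.08% of all genes. In Lrp5 KO limma called 0 of the 83 either way, with 3 at an unadjusted p under 0.05. These probe sets were dim, and all were chosen after their values were seen.

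Probe sets that list several symbols were tested apart. A probe set that lists Gm3776, Gsta1 and Gsta2 was lower in Norrin KO (-1.30, adjusted p = 0.0334) with group means up to 5.16, and 1 that lists Cyp4f37 and Cyp4f16 was higher there (0.85, adjusted p = 0.0465).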
